A study of Mus musculus with 24 samples.

Results

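CD4+ T cells cultured under Th2-skewing conditions were compared with cells cultured under Th1-skewing conditions, hour by hour, over the first day after activation. The comparison took the 6 Th2 libraries and the 6 Th1 libraries at 4, 8, 12, 16, 20 and 24 h, which are 12 of the 24 libraries of the series, and paired them by time point. CD4+ cells were purified by negative magnetic selection from adult spleen of WT C57BL/6 mice, with cells of 6 mice pooled, and expression was measured by RNA sequencing as RPKM (reads scaled to transcript length and to the mapped reads of the library). The labels name CD4+ cells, and the study's figure legend for this time course names purified CD4+ cells, whereas its methods call the cells sequenced naive. The study describes sorted naive cells for a separate, longer time course. Which cells were sequenced here was not tested. All cultures received anti-CD3e and anti-CD28. Th1 cultures further received recombinant IL-12 and anti-IL-4, an antibody that blocks IL-4. Th2 cultures received recombinant IL-4 with anti-IL-12 and anti-IFNG, which block IL-12 and IFN-γ. The conditions therefore differed in 2 added cytokines and 3 blocking antibodies, whose effects cannot be told apart. The 6 Th0 cultures, with anti-CD3e and anti-CD28 alone, are given alongside, as are 2 libraries of resting cells.

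IL-12 signals through STAT4 and induces IFN-γ and the transcription factor T-bet (encoded by Tbx21) in Th1 cells. IFN-γ acts back on the cells through its receptor and induces guanylate-binding proteins, immunity-related GTPases and chemokines. IL-4 signals through the IL-4 receptor and STAT6 and induces GATA3, the transcription factor that defines Th2 cells, together with a set of chemokines and receptors.

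Each condition was 1 series of cultures and each time point was sequenced once, so the 6 paired differences are serial samples and not biological replicates. The p-values measure how steady a difference was over the day, against a spread that was estimated with the Th0 cultures included. In these bulk samples, fewer cells of a type and less RNA per cell cannot be told apart. Depth was recovered from the RPKM values of genes with a single transcript: 22320770 to 33017133 mapped reads in Th1 and 17512385 to 30830243 in Th2. Transcripts of haemoglobin took 7.36% of the summed RPKM in Th2 at 4 h against 4.99% in Th1, and at most 0.033% at 24 h in both. Of the 14 T cell markers listed, 11 were in the table, and their summed RPKM was between 1841 and 2346 in Th2 and between 1937 and 2395 in Th1.

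Promoters were examined for 3 short patterns, searched in the 250 bases before the RefSeq start sites (GRCm38.p6): TTCNNNGAA, to which STAT factors bind, TTCNNNNGAA, the wider spacing that STAT6 prefers, and GAAANNGAAA with its reverse TTTCNNTTTC, the interferon-stimulated element. The first and second patterns read the same on both strands. Of the genes tested between Th2 and Th1, 8181 of 10737 had a promoter in the table. The interferon-stimulated element was found for 27 of the 107 genes called lower in Th2 with a promoter (25.2%), for 2 of the 50 called higher (4.0%) and for 279 of all 8181 (3.41%). TTCNNNGAA was found for 19.6% of the genes called lower, 12.0% of those called higher and 7.3% of all. TTCNNNNGAA was found for 7 of the 50 genes called higher (14%), 6.54% of those called lower and 5.54% of all. Over all 32851 promoters the shares were 2.98% for the element, 7.02% for TTCNNNGAA and 5.85% for TTCNNNNGAA. These matches are descriptions of letters in a fixed window and were not tested.

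Promoters are shown for 3 listed genes that were called lower in Th2 with large differences and carry the interferon-stimulated element. They are the chemokine gene Cxcl10 (chr5:92348890-92349139, minus strand), the antiviral gene Ifit3b (chr19:34607707-34607956, plus strand) and the guanylate-binding protein gene Gbp2 (chr3:142620413-142620662, plus strand). These 3 are examples and not a ranking of all listed genes with a match. Capitals mark the interferon-stimulated element on either strand, which starts 213 bases before the start site in Cxcl10, 188 and 154 bases before it in Ifit3b and 59 bases before it in Gbp2, whose RefSeq start site, and the marked element, lie inside the annotated gene.
Cxcl10: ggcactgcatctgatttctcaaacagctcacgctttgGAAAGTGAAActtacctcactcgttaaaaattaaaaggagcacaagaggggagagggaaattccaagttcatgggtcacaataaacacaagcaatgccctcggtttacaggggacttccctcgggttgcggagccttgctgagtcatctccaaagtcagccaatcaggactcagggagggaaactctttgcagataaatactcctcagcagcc
Ifit3b: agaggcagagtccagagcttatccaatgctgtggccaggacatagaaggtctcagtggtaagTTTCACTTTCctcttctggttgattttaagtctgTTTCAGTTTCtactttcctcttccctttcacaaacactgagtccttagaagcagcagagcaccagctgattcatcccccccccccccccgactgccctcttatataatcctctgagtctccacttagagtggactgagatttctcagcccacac
Gbp2: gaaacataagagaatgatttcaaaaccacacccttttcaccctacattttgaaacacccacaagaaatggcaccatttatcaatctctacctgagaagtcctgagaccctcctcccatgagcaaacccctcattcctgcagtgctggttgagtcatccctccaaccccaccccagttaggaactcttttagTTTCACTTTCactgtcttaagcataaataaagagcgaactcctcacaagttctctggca

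Of the listed genes called higher in Th2, 2 carry TTCNNNNGAA: Ccl17, a chemokine gene (chr8:94810203-94810452, plus strand), and Fcer2a, the gene of the low-affinity IgE receptor CD23 (chr8:3690862-3691111, minus strand, a start site inside the annotated gene). Capitals mark the pattern, which starts 154 bases before the start site in Ccl17 and 168 bases before it in Fcer2a.
Ccl17: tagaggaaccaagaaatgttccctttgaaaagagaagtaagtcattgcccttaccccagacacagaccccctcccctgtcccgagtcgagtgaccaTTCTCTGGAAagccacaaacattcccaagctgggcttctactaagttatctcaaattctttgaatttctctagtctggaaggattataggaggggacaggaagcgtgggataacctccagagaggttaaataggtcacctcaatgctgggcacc
Fcer2a: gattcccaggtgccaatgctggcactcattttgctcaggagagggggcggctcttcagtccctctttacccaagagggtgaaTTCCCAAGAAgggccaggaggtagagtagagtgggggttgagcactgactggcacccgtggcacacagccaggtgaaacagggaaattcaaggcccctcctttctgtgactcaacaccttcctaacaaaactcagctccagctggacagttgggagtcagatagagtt

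More genes were lower than higher in Th2. Between the 2 conditions, 210 of 10737 genes tested (1.96%) differed by at least 2-fold over the 6 time points at an adjusted p under 0.05 (limma on log2(RPKM + 0.5), Benjamini-Hochberg). In Th2, 149 of them (1.39% of the genes tested) were lower and 61 (0.568%) were higher. The difference exceeded 4-fold for 26 of the lower and 13 of the higher genes. The median log2 difference of all genes tested was 0.02. The direction was the same at all 6 time points for 139 of the lower and 57 of the higher genes, against 17.8% of all genes tested, which had to include them. For 73 called genes, 41 lower and 32 higher, the lowest value of one condition lay above the highest of the other over the whole day, which held for 1.37% of all genes tested.

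**Figure D1:**
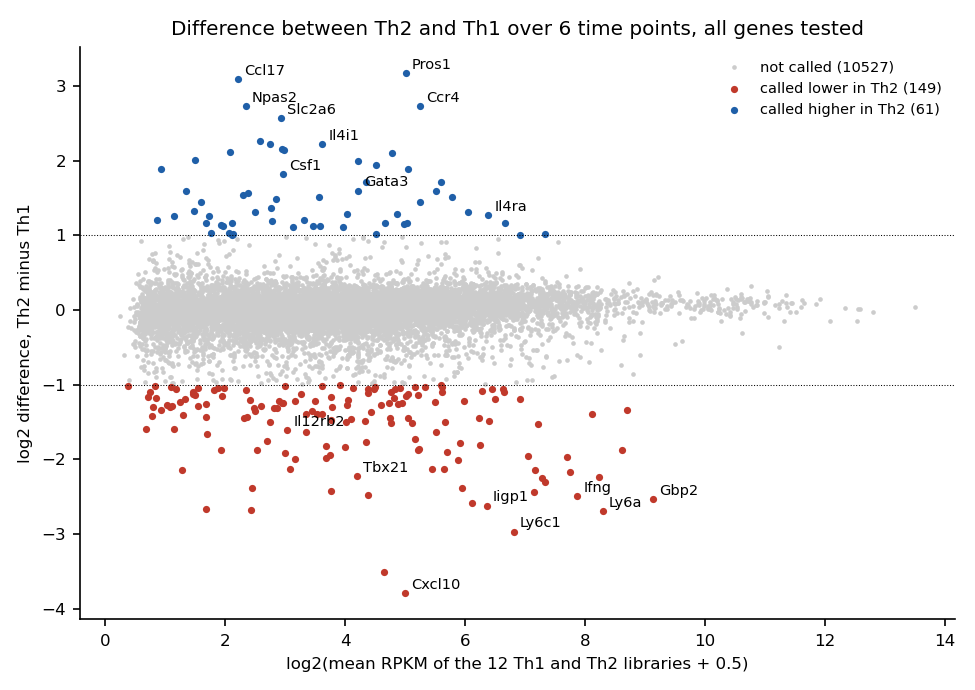
Each point is 1 of the 10737 genes tested, with the log2 of its mean RPKM over the 12 Th1 and Th2 libraries (plus 0.5) on the x axis and its log2 difference, Th2 minus Th1, on the y axis. Red points are the 149 genes called lower in Th2, blue points the 61 called higher, and dotted lines mark a 2-fold difference.

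At single time points, where 1 library stands against 1 and no test is possible, 4.0% of genes tested differed by at least 2-fold at 4 h, 2.8% at 8 h, 2.19% at 12 h, 3.69% at 16 h, 2.91% at 20 h and 2.99% at 24 h. At 4 h, 233 genes were at least 2-fold higher in Th2 and 197 lower, whereas at 16 h 77 were higher and 319 lower. Of the 149 genes called lower, 84 were at least 2-fold lower at 4 h and 145 at 16 h. Of the 61 called higher, 47 were at least 2-fold higher at 4 h and 48 at 24 h. The lower genes thus passed 2-fold most often at 16 h, and the higher genes about equally often throughout.

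Th2 cultures had less of the transcripts that define Th1 cells. Ifng, which encodes IFN-γ, was expressed at 205.7, 414, 451, 499.9, 428 and 388 RPKM in Th1 from 4 to 24 h, and at 60.5, 62.6, 71.4, 73.0, 75.0 and 66.2 RPKM in Th2. Every Th1 value was above every Th2 value. Over the day, Ifng had a log2 difference of -2.49 (standard error 0.26, adjusted p = 7.09e-06, limma), and from 5542 and 1434 reads at 4 h the ratio of Th1 to Th2 was 3.40 (95% interval 3.21 to 3.61, counting error only). In Th0, Ifng rose from 14.9 RPKM at 4 h to 94.5 RPKM at 24 h and was thus below Th2 at 4 h and above it at 24 h.

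Tbx21, the gene of T-bet, was expressed at 16.5, 20.2, 21.9, 29.1, 44.3 and 47.0 RPKM in Th1 and at 9.70, 8.48, 5.37, 4.04, 4.30 and 3.50 RPKM in Th2. The series moved apart, with Th1 ending at its highest and Th2 at its lowest value, and they did not overlap. For Tbx21, the log2 difference was -2.23 (standard error 0.33, adjusted p = 0.000248, limma). From the reads, the ratio of Th1 to Th2 was 1.71 at 4 h (95% interval 1.53 to 1.91) and 13.4 at 24 h (11.7 to 15.4). In Th0, Tbx21 reached 41.0 RPKM at 24 h.

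The receptor subunit Il12rb2, which confers the response to IL-12, was close in both conditions at 4 h, at 13.6 RPKM in Th1 and 13.4 RPKM in Th2. Thereafter it reached 16.4 RPKM in Th1 and 1.75 RPKM in Th2 at 24 h. The log2 difference of Il12rb2 was -1.60 (standard error 0.26, adjusted p = 0.000596, limma). Over 4 to 12 h alone it was -0.79 and not called. Its partner Il12rb1 was lower in Th2 at 6 of 6 time points by a log2 difference of -0.89 (adjusted p = 0.00137, limma), under 2-fold, and without 8 h by -1.01. Stat4, which carries the IL-12 signal, had a difference of 0.15 (adjusted p = 0.526, limma). Both subunits of the IL-18 receptor were lower in Th2, Il18r1 by a log2 difference of -1.64 (adjusted p = 1.21e-07, limma) and Il18rap by -1.39 (adjusted p = 2.28e-07, limma).

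Of 28 Th1 genes tested, 12 were called lower in Th2, against 1.39% of all genes, none was called higher, and the median log2 difference was -0.78. Besides those given above, they included Ly6c1, with a log2 difference of -2.97 (adjusted p = 1.92e-08, limma), from a family whose members share sequence. Of 24 targets of IL-12 and STAT4, 11 were called lower, and their median was -0.91. That median was -0.04 at 4 h, -0.83 at 8 h, -1.03 at 12 h and -1.20 at 24 h. The perforin gene Prf1, also a marker of NK cells, was between 11.3 and 18.9 RPKM in Th1 and between 3.86 and 7.36 RPKM in Th2, with a log2 difference of -1.35 (adjusted p = 2.44e-06, limma). Of the 12 NK cell markers tested, 3 were called lower, Prf1 itself, Ncr1 (-1.07, and -0.93 without 12 h) and Klrc1 (-1.02, and -0.88 without 16 h), while Klrb1c had a difference of 0.75 (adjusted p = 0.00346, limma), under 2-fold, and Eomes of 0.38 (adjusted p = 0.191, limma). In sign, 2 of the 12 were higher and 10 lower, with a median log2 difference of -0.47. Klrd1 (-0.92) and Klre1 (-0.80) were among the lower ones, both under 2-fold. The summed RPKM of all 12 was lower in Th2 at 6 of 6 time points (69.1 to 219.6 RPKM in Th2 and 81.9 to 260.9 RPKM in Th1), and that of the 10 markers in no pathway list was higher in Th2 at 1 (49.6 to 196.8 RPKM in Th2 and 52.3 to 240.9 RPKM in Th1). Their part in the differences of Ifng, Prf1 and the other Th1 genes was not tested.

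**Figure D2:**
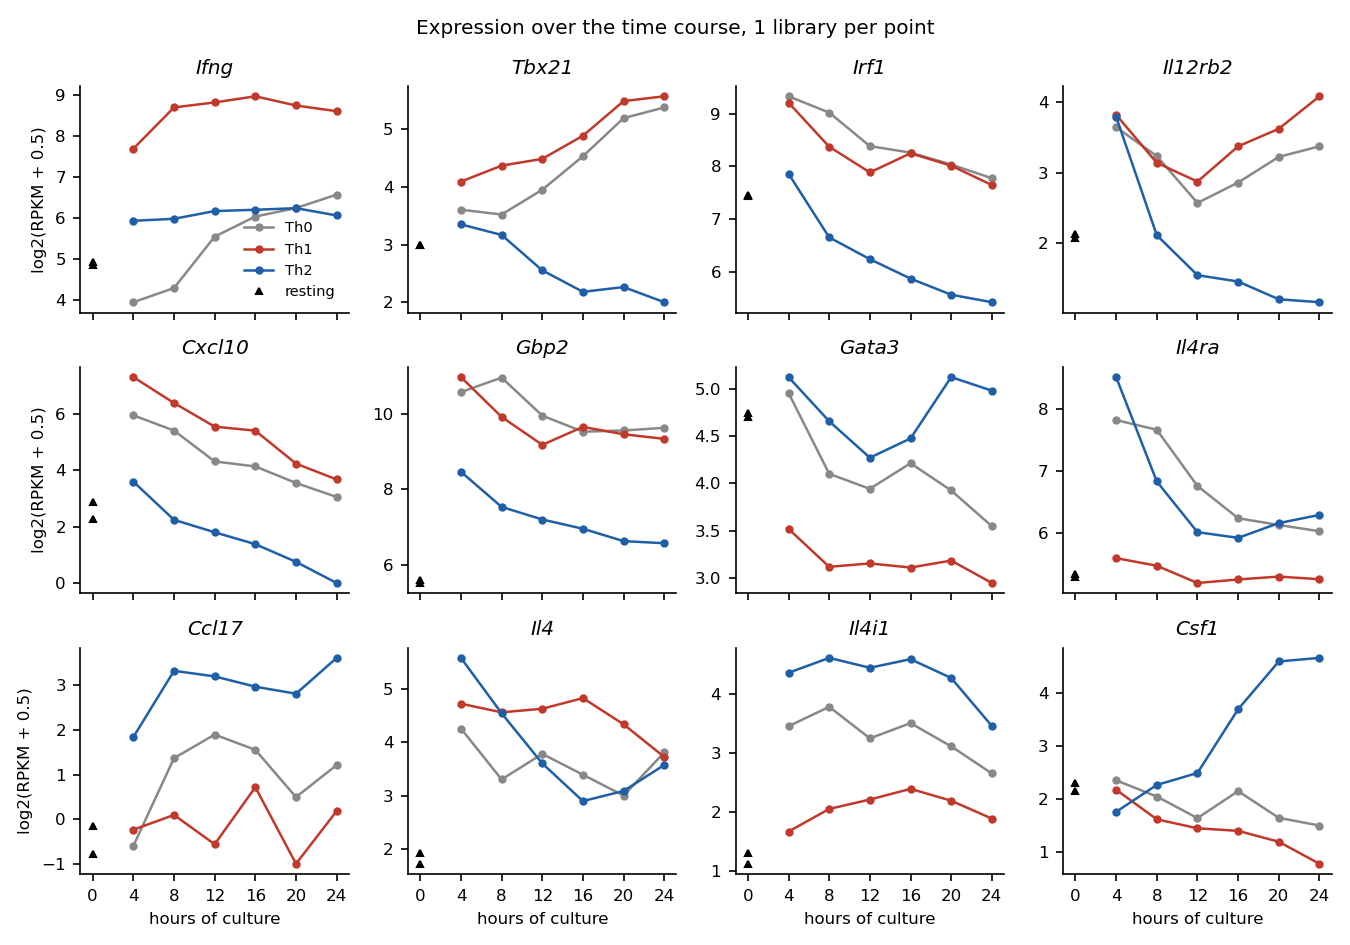
Expression of 12 genes as log2(RPKM + 0.5) against hours of culture in Th0 (grey), Th1 (red) and Th2 (blue), with 1 library per point and the 2 resting libraries as triangles at 0 h. Ifng, Tbx21, Irf1, Cxcl10 and Gbp2 lie lower in Th2 than in Th1 at all 6 time points, Gata3, Il4ra, Ccl17 and Il4i1 lie higher, and Il4 crosses over.

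Genes induced by interferon made up most of the listed genes that were lower in Th2. All 7 guanylate-binding protein genes tested, GTPases that act against pathogens inside cells, were called lower, against 1.39% of all genes, with a median log2 difference of -2.12. Gbp2, the most abundant, was expressed at 2015, 969, 579.7, 806, 704 and 647 RPKM in Th1 and at 353, 185, 147, 124, 98.4 and 94.7 RPKM in Th2. All Th1 values were above all Th2 values, and both series began at their highest value. Gbp2 had a log2 difference of -2.53 (standard error 0.16, adjusted p = 1.92e-08, limma). Gbp8, Gbp4 and Gbp9 differed by -2.38, -2.25 and -2.12; these 3 genes overlap in the annotation of chromosome 5, so how their reads were divided is uncertain.

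All 8 immunity-related GTPases tested, which act on the vacuoles of pathogens, were also called lower, against 1.39% of all genes, with a median log2 difference of -2.20. Irgm1 was expressed at 480.1, 202, 158, 195.5, 187 and 178 RPKM in Th1 and at 118, 61.2, 38.4, 30.0, 20.9 and 21.0 RPKM in Th2. The lowest Th1 value exceeded the highest Th2 value. Iigp1 had the largest log2 difference of the family at -2.62 (adjusted p = 1.99e-07, limma), followed by Irgm1 at -2.44 (adjusted p = 7.14e-08, limma), Tgtp2 at -2.30 (adjusted p = 1.92e-07, limma) and Igtp at -2.23 (adjusted p = 1.00e-08, limma). Tgtp2 has a near-identical neighbour, Tgtp1, which differed by -2.17, so the division of reads between them is uncertain.

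Both interferon-induced CXC chemokines were far lower in Th2. Cxcl10 had the largest difference of any gene called lower: it was expressed at 156, 82.4, 45.9, 41.5, 18.2 and 12.2 RPKM in Th1 and at 11.5, 4.21, 2.98, 2.09, 1.18 and 0.5 RPKM in Th2. Each Th1 value was above all Th2 values although both series fell throughout. The log2 difference of Cxcl10 was -3.79 (standard error 0.11, adjusted p = 1.84e-12, limma), a 13.8-fold difference. Cxcl9 was under 1 RPKM in every Th2 library and was between 1.71 and 8.11 RPKM in Th1, with a log2 difference of -2.67 (adjusted p = 2.24e-08, limma). The other 6 chemokines and ligands tested were not called, and the list's median was -0.61.

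Of 42 antiviral genes tested, 20 were called lower, against 1.39% of all genes, and none higher, with a median log2 difference of -0.97, and 41 of the 42 were lower in sign. Ifit3b (-2.67) and Ifit3 (-2.42), which share sequence, Ly6a (-2.69) and Oasl2 (-1.94) had the largest differences. Ly6a, also known as Sca-1, was expressed at 950.0, 559.6, 348, 444, 412 and 397 RPKM in Th1 and at 309, 152, 77.9, 42.5, 35.8 and 32.1 RPKM in Th2. Its range in Th2 lay below that in Th1, and the gap widened as Th2 fell. By contrast Usp18 differed by -0.11 and Slfn2 by 0.13, neither passing the test (adjusted p = 0.82 and 0.422, limma). Among the Ifitm genes, Ifitm3 was called lower (-1.50, adjusted p = 0.000975, limma), and Ifitm1 and Ifitm2 were not, both with -0.56, under 2-fold (adjusted p = 0.0192 and 0.0476, limma). The median of the antiviral list was -0.50 at 4 h and -1.82 at 16 h.

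Some transcription factors of the interferon response were also called lower. Irf1, a transcription factor that interferons induce, was expressed at 592, 331, 236, 304, 258 and 199.8 RPKM in Th1 and at 232, 100.05, 75.0, 58.0, 46.8 and 42.4 RPKM in Th2. Th1 was above Th2 at 6 of 6 time points, and the ranges overlapped, since the Th2 value at 4 h exceeded the Th1 value at 24 h. The log2 difference of Irf1 was -1.96 (standard error 0.13, adjusted p = 4.97e-08, limma), that of Irf8 also -1.96 (adjusted p = 1.05e-05, limma), and that of Irf7 -1.27. Of the 20 signalling genes tested, 5 were called lower, among them these 3 and Ifng, against 1.39% of all genes, and none higher. Irf9 (-0.74) and Irf2 (-0.54) were under 2-fold, and Irf5 (0.19) and Irf3 (0.05) did not pass the test (adjusted p = 0.397 and 0.668, limma). The receptor genes Ifngr1 and Ifngr2 had differences of -0.71 and 0.76 and the kinase genes Jak1 and Jak2 of -0.22 and 0.21, all under 2-fold.

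A few genes of antigen presentation were called, lower for MHC class I and higher for class II. Of 22 genes of class I presentation tested, 3 were called lower, against 1.39% of all genes: Nlrc5, the transactivator of class I genes (-1.48, adjusted p = 2.47e-06, limma), the immunoproteasome subunit Psmb9 (-1.22, adjusted p = 1.06e-05, limma) and the peptide transporter Tap1 (-1.19, adjusted p = 1.44e-06, limma). The median of the list was -0.57, and 20 of 22 were lower in sign. Of 9 class II genes tested, 2 were called higher in Th2, against 0.568% of all genes, with a list median of 0.48. They were H2-DMa (44.4 to 13.1 RPKM in Th2 and 14.9 to 5.76 RPKM in Th1) and H2-DMb2 (7.19 to 3.67 RPKM in Th2 and 3.69 to 1.24 RPKM in Th1), which encode chains of the molecule that loads peptides onto class II. The log2 differences were 1.11 for H2-DMa (adjusted p = 0.000342, limma) and 1.02 for H2-DMb2 (adjusted p = 0.000176, limma), the latter 0.95 without 12 h or without 24 h. Their means in Th0 were 31.4 and 5.29 RPKM, against 21.2 and 5.35 RPKM in Th2. Of the 7 class II genes not called, H2-Ob had a difference of -0.73 (adjusted p = 0.00167, limma) and H2-Oa of -0.11 (adjusted p = 0.78, limma). Class II genes are expressed chiefly by B cells and other antigen-presenting cells. The summed RPKM of 12 B cell markers was higher in Th2 at 6 of 6 time points (31.7 to 71.1 RPKM against 14.6 to 44.5 RPKM in Th1). Without Fcer2a, the sum of the other 11 was also higher at 6 (21.0 to 64.5 RPKM against 11.6 to 43.0 RPKM). All 8 markers tested were higher in sign. Only Fcer2a and Cd79b (1.11, adjusted p = 0.000241, limma, and 0.92 without 24 h) were called, and Ms4a1 differed by 0.10. The part of B cells in the class II difference was not tested.

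**Figure D3:**
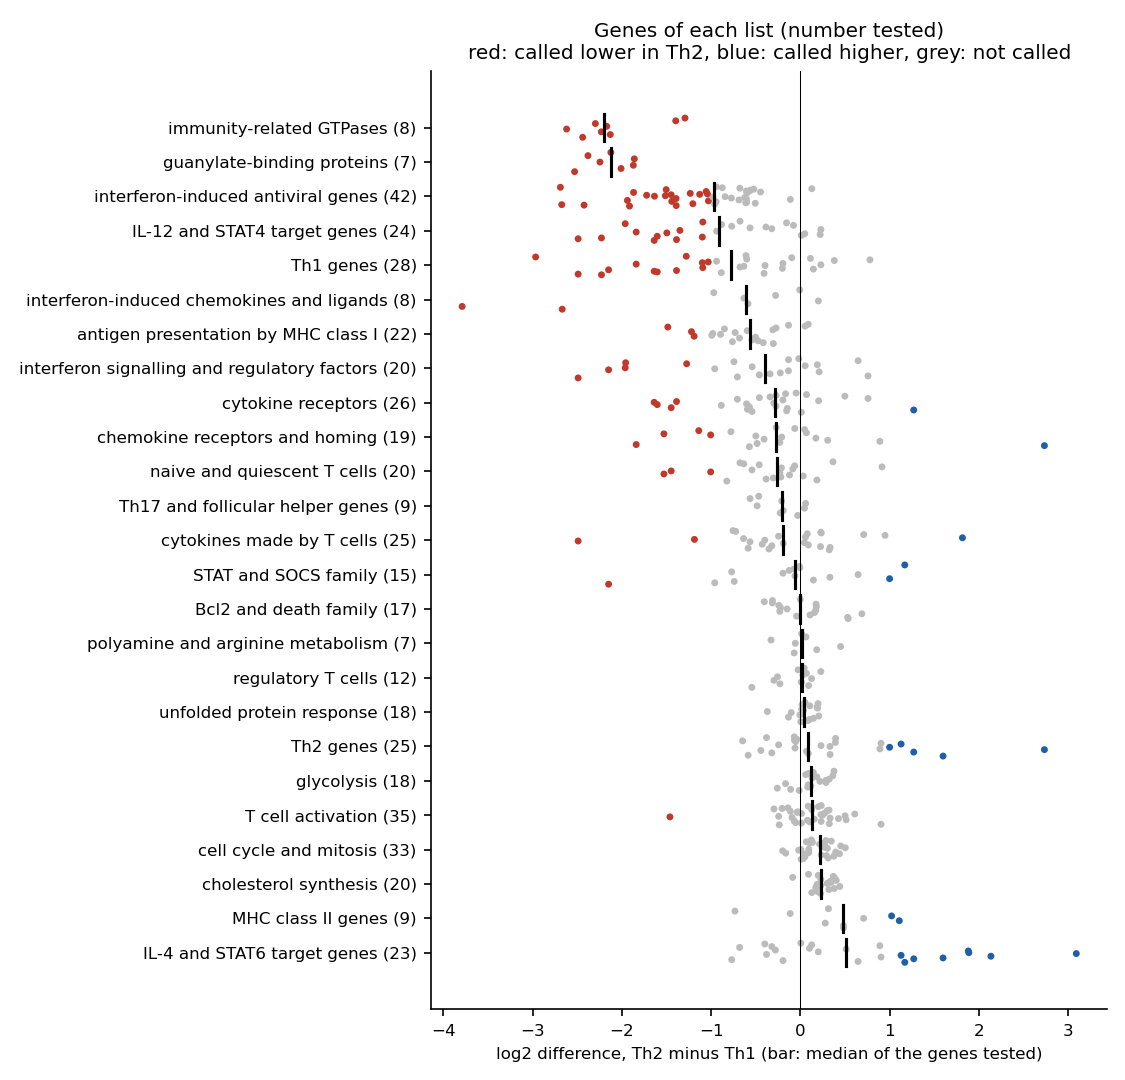
Log2 differences, Th2 minus Th1, of the genes tested in each of 25 lists, with the number tested in brackets and the list median as a black bar. Red points were called lower and blue points higher in Th2. All points of the guanylate-binding proteins and immunity-related GTPases are red, and the blue points lie mostly among IL-4 and STAT6 targets and Th2 genes.

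Genes higher in Th2 than in Th1 were fewer and included receptors and chemokines listed for the IL-4 response. Gata3 was expressed at 34.4, 24.7, 18.8, 21.8, 34.4 and 31.1 RPKM in Th2 and at 11, 8.18, 8.40, 8.14, 8.59 and 7.21 RPKM in Th1. Every Th2 value was above every Th1 value. Gata3 had a log2 difference of 1.60 (standard error 0.14, adjusted p = 1.24e-06, limma). Resting cells had 26.3 and 25.5 RPKM of Gata3, above all Th1 values and within the range of Th2.

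Il4ra, the receptor chain that binds IL-4, was expressed at 363, 114, 64.4, 60.4, 71.3 and 78.1 RPKM in Th2 and at 48.1, 44.2, 36.4, 37.9, 39.1 and 38.0 RPKM in Th1. The ranges were apart, and the Th2 value at 4 h stood far above the later ones. In Th0, without added IL-4, Il4ra was between 65.1 and 225 RPKM. Its mean was 124 RPKM in Th0, 125 RPKM in Th2 and 40.6 RPKM in Th1. The log2 difference of Il4ra was 1.27 (standard error 0.23, adjusted p = 0.0015, limma), and 0.94, under 2-fold, without 4 h. By reads, the ratio of Th2 to Th1 was 7.55 at 4 h (95% interval 7.34 to 7.77) and 2.06 at 24 h (1.99 to 2.13). Stat6, which carries the IL-4 signal, differed by -0.06 (adjusted p = 0.706, limma). The feedback inhibitor Cish was between 120.3 and 163 RPKM in Th2 and between 39.3 and 83.8 RPKM in Th1, with a log2 difference of 1.17 (adjusted p = 1.18e-06, limma), while Socs1 was higher at 6 of 6 time points by 0.65 (adjusted p = 0.00386, limma), under 2-fold. The Th0 mean of Cish, 79.2 RPKM, lay between those of Th1 and Th2. Socs1 had means of 95.3 RPKM in Th0, 93.6 RPKM in Th2 and 56.4 RPKM in Th1.

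Of 23 targets of IL-4 and STAT6 tested, 8 were called higher and none lower, against 0.568% of all genes, and the median log2 difference was 0.51, or 0.20 when genes under 1 RPKM were kept. The chemokines Ccl17 and Ccl22, both ligands of CCR4, were among them. Ccl17 was expressed at 3.08, 9.51, 8.68, 7.32, 6.51 and 11.7 RPKM in Th2, and in Th1 it did not exceed 1.14 RPKM and was at 0 at 20 h. Its log2 difference of 3.09 (standard error 0.26, adjusted p = 5.12e-07, limma) rests on few reads in Th1: at 24 h the reads were 154 in Th2 and 9 in Th1, a ratio of 18.5 (95% interval 9.50 to 41.2). Ccl22 was between 3.26 and 78.2 RPKM in Th2 and between 1.68 and 15.3 RPKM in Th1, with a log2 difference of 1.89 (adjusted p = 1.30e-06, limma). Ccl17, Ccl22 and Cd83 are also markers of dendritic cells, and the other 4 dendritic cell markers tested were not called: Itgax differed by 0.54 (adjusted p = 0.00343, limma), Zbtb46 by 0.31, Siglech by -0.05 and Bst2 by -0.60. Xcr1, Clec9a and Cd209a were under 1 RPKM in all 12 libraries. The summed RPKM of the 12 dendritic cell markers was higher in Th2 at 6 of 6 time points (108.7 to 270.9 RPKM against 71.7 to 112.3 RPKM in Th1), as was that of the 8 in no pathway list, Cd83 among them (54.7 to 145.5 RPKM against 16.7 to 41.1 RPKM). Cd83 alone was between 47.4 and 140.9 RPKM in Th2 and between 13.5 and 34.0 RPKM in Th1. The sum of the 8 therefore mainly repeats Cd83. The part of dendritic cells in these differences was not tested.

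Their receptor Ccr4, a homing receptor of Th2 cells, was expressed at 36.1, 51.5, 58.5, 68.9, 86.4 and 88.9 RPKM in Th2 and at 5.21, 6.35, 7.61, 8.78, 13.4 and 16.4 RPKM in Th1. Both series rose in parallel without overlapping. For Ccr4, the log2 difference was 2.74 (standard error 0.08, adjusted p = 1.57e-12, limma). It was the only 1 of 19 homing genes called higher, against 0.568% of all genes. In that list 4 were called lower, against 1.39% of all genes, among them Itgb7 (-1.14) and S1pr1 (-1.0, and -0.87 without 16 h). Of 20 genes of naive T cells, 3 were called lower, against 1.39% of all genes, and the other 17 were not called. Among the 3 were S1pr1 and the IL-7 receptor gene Il7r (-1.45, adjusted p = 5.71e-05, limma).

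Fcer2a was between 6.59 and 16.4 RPKM in Th2 and between 1.5 and 2.99 RPKM in Th1. The ranges did not overlap, and the log2 difference was 2.14 (standard error 0.13, adjusted p = 1.71e-08, limma). Fcer2a is a marker of B cells, whose values are given above. Chil3 (1.88), a gene of IL-4-treated macrophages, and Cma1 (2.01), a mast cell protease, were called higher as well, but from low levels of at most 5.37 and 11.2 RPKM in Th2. Kit, another mast cell marker, was called lower (-1.10, adjusted p = 8.52e-05, limma). The transcription factor gene Nfil3 was nearly constant at 12.2 to 15.7 RPKM in Th2 and 6.03 to 7.19 RPKM in Th1 (1.13, adjusted p = 6.82e-08, limma), and Stat5a differed by 1.0 (adjusted p = 1.68e-05, limma), and by 0.95 without 16 h.

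Type 2 cytokine transcripts were not called higher in Th2 during the first day. Il4 was expressed at 47.4, 22.8, 11.7, 6.97, 8.02 and 11.4 RPKM in Th2 and at 25.9, 23.1, 24.3, 27.9, 19.7 and 12.7 RPKM in Th1. It was higher in Th2 at 4 h alone and lower at the other 5 time points. The log2 difference of Il4 was -0.58 (standard error 0.27, adjusted p = 0.191, limma). Over 16 to 24 h alone it was -1.11 and passed the test (adjusted p = 0.0254, limma). Il5 differed by 0.33 (adjusted p = 0.382, limma) at 0.485 to 2.42 RPKM in Th2, and Il13 by 0.09 (adjusted p = 0.797, limma). At 4 h the ratio of Th2 to Th1 for Il13 was 1.66 (304 and 208 reads, 95% interval 1.39 to 1.99), and at 24 h it was 0.952 (0.813 to 1.11). Of 25 Th2 genes tested, 5 were called higher (Ccr4, Gata3, Il4ra, Nfil3 and Stat5a), none lower, against 0.568% of all genes called higher, and the list median was 0.09. That median was 0.73 at 4 h and -0.07 at 24 h, while that of all genes tested was 0.02 and -0.10. The median of the T cell activation list fell as well, from 0.55 to -0.23, whereas that of the guanylate-binding proteins rose from -2.24 to -1.80.

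The genes most strongly higher in Th2 lay mostly outside these lists. Pros1, which encodes the anticoagulant protein S, a ligand of TAM receptors, was expressed at 19.5, 15.3, 28.5, 61.5, 98.2 and 127 RPKM in Th2 and at 2.48, 2.01, 3.29, 5.85, 6.82 and 9.54 RPKM in Th1. Both series rose, and they remained apart. Pros1 differed on the log2 scale by 3.17 (standard error 0.20, adjusted p = 2.20e-08, limma), and in Th0 its levels were 11.4 to 53.2 RPKM. Npas2, a transcription factor of the circadian clock, was between 3.38 and 13.6 RPKM in Th2 and between 0.233 and 1.33 RPKM in Th1 (2.73, adjusted p = 2.54e-07, limma). Slc2a6, a hexose transporter, differed by 2.57, the tetraspanin Tspan9 by 2.26 and the phosphatase Dusp10, which acts on MAP kinases, by 2.10. Their means in Th0 were 6.85, 6.01 and 43.9 RPKM, against 12.5, 9.36 and 43.7 RPKM in Th2. Il4i1, an amino acid oxidase first known as induced by IL-4, was between 10.5 and 24.1 RPKM in Th2 and between 2.68 and 4.76 RPKM in Th1 (2.23, adjusted p = 1.63e-08, limma). All 12 genes with the largest positive differences, 2 of them without a described function, were higher in Th2 at 6 of 6 time points. They were picked for their mean over these time points, which favours a shared sign, and 196 of all 210 called genes had one.

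The 12 genes with the largest negative differences included, besides those above, Ifit1bl1 (-3.50, adjusted p = 2.51e-07, limma), a relative of the Ifit genes, Pydc4 (-2.48, adjusted p = 4.46e-07, limma), of the PYHIN family, and the predicted gene Gm43302 (-2.59). Ifit1bl1 was between 7.15 and 84.6 RPKM in Th1 and between 0.987 and 13.9 RPKM in Th2, and its ranges overlapped, with both series falling over the day. All 12 were lower in Th2 at 6 of 6 time points, which their choice by mean difference also favours.

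Th0 cultures, which received no cytokine and no blocking antibody to one, gave the following levels for the called genes. For the 149 genes lower in Th2, the median log2 difference between the Th0 and Th1 means was 0.01, and the Th0 mean was above both others for 77 genes, between them for 70 and below both for 2. For the 61 genes higher in Th2, the Th0 mean was between the others for 50 and above both for 11, with a median log2 difference of 0.73 to Th1 and -0.84 to Th2. Thus Th0 was near Th1 for the genes lower in Th2 and intermediate for those higher. The genes were called on the difference between Th2 and Th1, with Th0 entering the expression filter and the spread. These positions were not tested.

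The difference itself changed over time for a smaller set. A straight line through the 6 differences changed by at least 2-fold from 4 to 24 h at an adjusted p under 0.05 (limma) for 102 genes (0.95% of those tested), rising in Th2 relative to Th1 for 28 and falling for 74. This number depends on single time points: it was 255 without 4 h, 278 without 8 h, 51 without 12 h, 46 without 16 h, 22 without 20 h and 24 without 24 h. Of the 102 genes, 12 were also called lower and falling and 5 higher and rising. With the 12 Th1 and Th2 libraries alone, 228 genes were called, with median-of-ratios scaling 75 and with upper-quartile scaling 78. The median log2 difference of all genes tested itself moved from 0.02 at 4 h to -0.10 at 24 h.

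Among the 5 genes with the steepest fall were Tbx21 (change of the log2 difference -3.00, standard error 0.24, adjusted p = 2.73e-05, limma), Il12rb2 (-2.74, standard error 0.28, adjusted p = 0.000335, limma) and the cytokine gene Lta, which encodes lymphotoxin α (-2.63, standard error 0.32, adjusted p = 0.00139, limma). Lta was expressed at 29.3, 83.0, 119.9, 146, 179.8 and 224 RPKM in Th1 and at 34.3, 61.6, 58.5, 52.9, 44.9 and 40.9 RPKM in Th2. Averaged over the day, the log2 difference of Lta was -1.19 (adjusted p = 0.0134, limma), and -0.94 without 24 h (adjusted p = 0.0556, limma). It began slightly higher in Th2 and ended at a ratio of Th1 to Th2 of 5.48 (95% interval 5.18 to 5.80). Igfbp4, which encodes a binding protein of insulin-like growth factors, had the steepest fall at -4.19 (standard error 0.63, adjusted p = 0.00574, limma), from a log2 difference of 2.46 at 4 h to -2.02 at 24 h, while its level in resting cells was 144.5 and 154 RPKM. Its average over the day, -0.71, was not called, and was -1.34 and called without 4 h. The urokinase receptor gene Plaur changed by -2.86 (adjusted p = 0.0109, limma).

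Csf1, the gene of macrophage colony-stimulating factor, had the steepest rise at 4.45 (standard error 0.29, adjusted p = 3.76e-06, limma). It was expressed at 2.88, 4.31, 5.13, 12.5, 23.9 and 25.0 RPKM in Th2 and fell from 4.02 to 1.21 RPKM in Th1. The conditions crossed between 4 and 8 h. Averaged over the day, the log2 difference of Csf1 was 1.82 (adjusted p = 0.0101, limma), and 1.5 without 20 h (adjusted p = 0.0544, limma). Erbb3, a receptor tyrosine kinase gene, changed by 3.38 (adjusted p = 0.00366, limma) and reached 16.5 RPKM in Th2 at 20 h, when it was 1.45 RPKM in Th1. Id1, an inhibitor of helix-loop-helix transcription factors, changed by 2.94 (adjusted p = 0.0259, limma), the kinase substrate gene Marcks by 2.41 (adjusted p = 0.000533, limma) and the surface molecule gene Cd83 by 2.26 (adjusted p = 0.0291, limma). Cd83 was at 140.9 RPKM in Th2 and 13.5 RPKM in Th1 at 24 h, a ratio of 10.5 (95% interval 9.72 to 11.3). All 5 were at their largest log2 difference at 20 or 24 h.

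**Figure D4:**
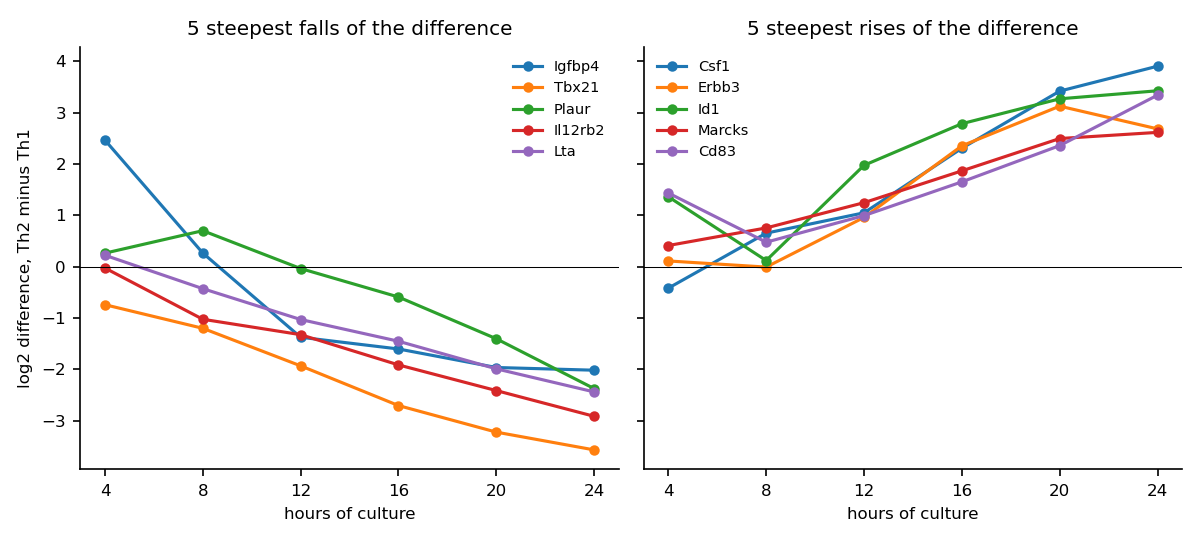
Log2 difference, Th2 minus Th1, at each of the 6 time points for the 5 genes whose difference fell most steeply (left) and the 5 whose difference rose most steeply (right). Csf1 goes from -0.42 at 4 h to 3.90 at 24 h and Tbx21 from -0.74 to -3.57.

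Of 35 genes of T cell activation tested, 1 was called, against 1.96% of all genes: Jun, a subunit of the AP-1 transcription factor, was lower in Th2 (-1.46, adjusted p = 6.87e-07, limma). The adhesion receptor gene Cd44 had a difference of 0.90 (adjusted p = 1.08e-05, limma), and the transcription factor genes Batf, Jund and Fos of 0.61, 0.50 and 0.43 (adjusted p = 0.0147, 0.0107 and 0.0227, limma), all under 2-fold. Il2 differed by 0.32 (adjusted p = 0.428, limma), Cd69 by -0.24 (adjusted p = 0.357, limma), Myc by 0.25 (adjusted p = 0.53, limma) and the IL-2 receptor chain Il2ra by 0.01 (adjusted p = 0.975, limma). The list's median moved from 0.55 at 4 h to -0.23 at 24 h. At 4 h Myc was at 157 RPKM in Th2 and 73.1 RPKM in Th1, and at 24 h at 206 and 294 RPKM. The slope of Il2ra was called (-1.17, adjusted p = 0.021, limma), and that of Myc was not (-1.29, adjusted p = 0.0889, limma). At 4 h the Th2 library also had the higher share of haemoglobin transcripts, given above, and its part in the 4 h values was not tested.

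No gene was called among those tested for the cell cycle (33), cholesterol synthesis (20), glycolysis (18), the unfolded protein response (18), the Bcl2 and death family (17), regulatory T cells (12), Th17 and follicular helper cells (9) or polyamine and arginine metabolism (7). Their median log2 differences were between -0.21 and 0.23. Over all genes tested 1.96% were called, so lists of this size would hold few called genes or none. Of the 134 entries of these lists, 48 had an unadjusted p under 0.05 and 23 an adjusted p under 0.05 (limma), all with less than a 2-fold difference. Among all 10737 genes tested, 1310 had an adjusted p under 0.05 (limma). Of the cholesterol synthesis genes, 19 of 20 were higher in sign with a median of 0.23, and of the cell cycle genes 30 of 33 with a median of 0.22, all under 2-fold. Of 26 cytokine receptors 1 was called higher and 4 lower, of 25 cytokines 1 (Csf1) higher and 2 (Ifng and Lta) lower, and of 15 STAT and SOCS genes 2 (Cish and Stat5a) higher and 1 lower. The shares over all genes tested were 0.568% higher and 1.39% lower. Among markers of other cells, 1 of 12 tested for monocytes and macrophages was called (Cybb, -1.07), and none of 9 for red blood cells, 5 for CD8 T cells, 3 for neutrophils or 11 for T cells.

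**Figure D5:**
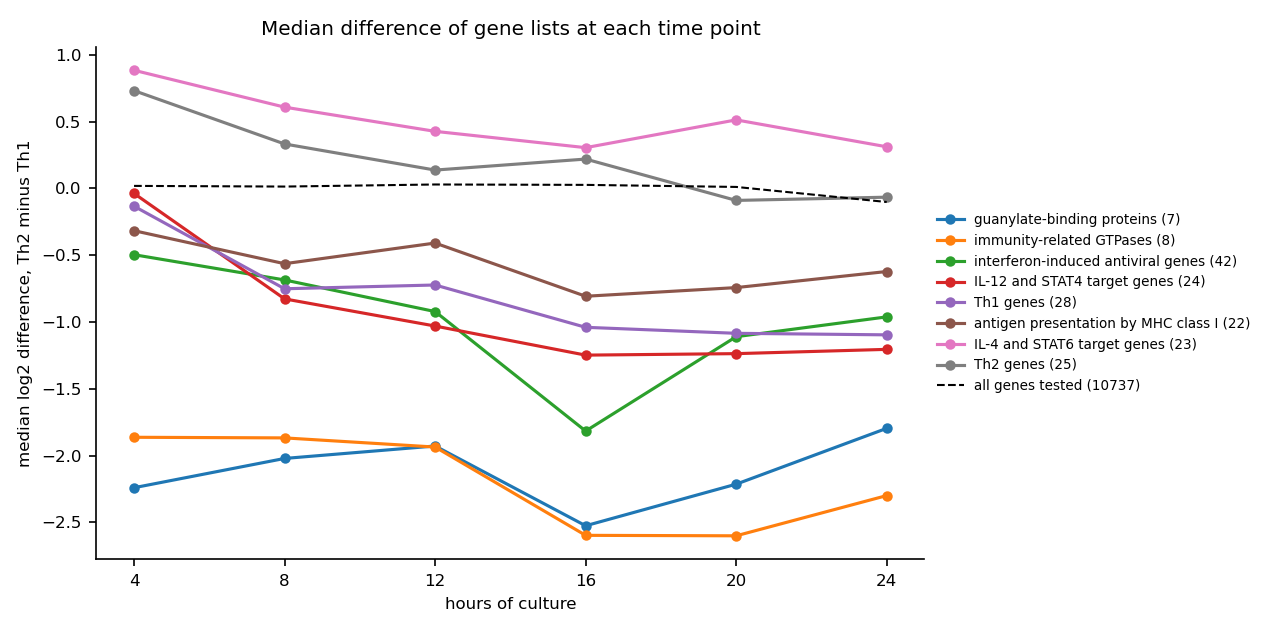
Median log2 difference, Th2 minus Th1, of 8 lists at each time point, with the number of genes tested in brackets and the median of all genes tested as a dashed line. Guanylate-binding proteins and immunity-related GTPases lie at or below -1.80 from 4 h on, whereas the IL-12 and STAT4 targets go from -0.04 at 4 h to -1.20 at 24 h.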

How the data were processed

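RNA was sequenced from CD4+ T cell cultures on an Illumina instrument, 1 library per condition and time point. The authors deposited expression as RPKM per gene symbol, and the submitters' processing notes name BWA and GRCm38. The values were used as deposited. Of 22010 entries, 1 without a name (sum 0) was left out, and 10737 genes were tested, those that averaged 1 RPKM or more over the 18 cultures.

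Differences were fitted with limma 3.58.1 (R 4.3.3), with an intensity trend, on log2(RPKM + 0.5), a scale that shrinks differences of weakly expressed genes, with the time point as a factor and Th0 included only for the spread. Calls required a Benjamini-Hochberg adjusted p under 0.05 and at least 2-fold, a threshold the study stated for its microarrays. Slopes of the difference on hours were tested in the same way.

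Reads per gene were recovered for 6238 of 16823 genes (37.1%) whose values were whole multiples of 1 read within 0.001 reads. Ratios carry conditional binomial 95% intervals (Clopper-Pearson), for counting error only. Promoters came from RefSeq (GRCm38.p6), gene positions from GENCODE. Python 3.11.15 with pandas 2.3.3 and scipy 1.17.1 was used.

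Named genes were the 12 most different called genes in each direction, up to 4 called members of each list and direction, 22 chosen regulators, cytokines and activation genes, and the 5 steepest slopes each way. The comparison, the 25 gene lists and 9 marker lists were chosen with earlier results of these data known. Alternatives were other pseudocounts, filters, scalings, no trend, no time point, fewer libraries and fewer time points. The actinomycin libraries were not used. A few listed genes are counted in their lists but not reported here by name.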

Additional observations from a re-analysis of the deposited data

Results flagged for a closer look

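The 6 paired log2 differences of 45 named genes were screened for a time point far from the others. With independent values, chance alone would give one in about 1 in 20 genes. These differences are serial samples, so that rate is only a rough guide. The screen picked out 3 of the 45 genes, not far above that rate, all at 4 h. For Ifng the difference was -1.76 at 4 h, with the nearest other value at -2.50. Il4ra had a difference of 2.90 at 4 h, and the nearest other was 1.35. For Ifitm3 it was 0.028 at 4 h, and the nearest other was -1.51.

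The difference between Th2 and Th1 changed along the time course, by the limma slope test, for 15 named genes. From 4 to 24 h the log2 difference changed by -4.19 for Igfbp4, by -3.00 for Tbx21, by -2.86 for Plaur, by -2.74 for Il12rb2 and by -2.63 for Lta. It changed by 4.45 for Csf1, by 3.38 for Erbb3, by 2.94 for Id1, by 2.41 for Marcks and by 2.26 for Cd83, which with the former 5 are the steepest each way. The other 5 were Ly6a (-2.29), Irf8 (-1.76), Irgm1 (-1.44), Nlrc5 (-1.32) and Il2ra (-1.17).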

How the results depend on the processing

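The 210 genes called between Th2 and Th1 were between 153 (mean of at least 5 RPKM) and 266 (only 16 to 24 h) under the alternatives that kept the time point, and between 193 and 226 with 1 time point left out. Without the time point in the model, 103 were called. The number of genes whose difference changed with time moved more: 102 became 55 with no filter, 228 with the 12 Th1 and Th2 libraries alone, and between 22 and 278 with 1 time point left out. The cause of these shifts was not tested. Of 69 named genes called, 36 kept their call under every alternative and none reversed. The calls of 23 named genes were lost without the time point in the model. No paired analysis was possible because of replicate numbers, which the labels do not give for these cultures, other than the pairing by time point already in the model.

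Directions that reversed all belong to genes not called. Il13 was -0.031 without 4 h, -0.0037 without 8 h and -0.17 over 16 to 24 h, and between -0.031 and 0.177 with 1 time point left out. Stat6 was 0.00108 without 24 h and 0.00608 over 4 to 12 h, and between -0.102 and 0.00108 with 1 time point left out. Myc was -0.058 over 16 to 24 h. Il2ra was -0.018 under quantile normalization, -0.0104 with the haemoglobin genes left out, -0.30 over 16 to 24 h, -0.12 without 4 h and -0.073 without 8 h, and between -0.124 and 0.119 with 1 time point left out. Igfbp4 was 0.45 and Plaur 0.31 over 4 to 12 h. Of 644 medians of lists under alternatives, 629 moved by less than their spread over time points. With 1 culture series per condition, no result measures variation between cultures or mice.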

Other observations

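Of the 210 genes called, 127 lay outside all lists. The following were chosen after their values were seen. Several genes of the PYHIN family, interferon-inducible sensors of DNA, were lower in Th2: Ifi203 (log2 difference -1.91, a mean of 23.2 RPKM in Th2 and 79.5 RPKM in Th1), Mndal (-1.50) and Pyhin1 (-1.25). These genes share sequence, so their reads may be divided among them. The adhesion molecule gene Icam1 was lower at -1.16, with means of 19.7 RPKM in Th2 and 44.0 RPKM in Th1, and the protease gene Ctss, which acts in class II presentation, at -1.09.

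Among the genes higher in Th2, the stress-induced transcription factor gene Atf3 had a log2 difference of 1.95, with means of 36.2 RPKM in Th2 and 8.35 RPKM in Th1. The semaphorin gene Sema4b differed by 2.00 and Crabp2, which encodes a binding protein of retinoic acid, by 1.59, with means of 68.6 RPKM in Th2 and 22 RPKM in Th1 against 0.632 RPKM at rest. Gpr183, a receptor for oxysterols, differed by 1.44. All these genes passed the limma test with an adjusted p under 0.05.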
